A study of Mus musculus with 12 samples.

Results

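The 38 genes described here mark the cells of the brain's blood vessels and of its outer coverings: 20 endothelial genes, 8 genes of mural cells (pericytes and smooth muscle), 2 basement membrane collagens, 5 matrix genes of fibroblasts and 3 leptomeningeal genes. They were taken by gene symbol from a table of 57132 features, of which 16174 passed a filter on low counts, and 35 of the 38 were among those. The filter asked for a CPM (count scaled to the total of the library) of 0.25 or more in at least 3 libraries, and Tie1, Kcnj8 and Tagln did not reach it. The study sequenced striatal RNA of 10-month-old C57Bl/6 littermates, either lacking trace amine-associated receptor 5 (TAAR5-KO) or wild type (TAAR5-WT), with 6 libraries of each genotype. The tissue was what remained of a coronal slice in front of Bregma after the cortex had been cut away, ribosomal RNA was depleted from total RNA, and the libraries were directional. How the knockout line was made is not given in the sources used here. Each genotype held male and female mice, but the libraries were not tied to a mouse or a sex. The comparison asks which of these genes differ in level between the genotypes.

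Endothelial cells line the vessel and, in the brain, are sealed to each other by tight junctions, so that nutrients and lipids pass through dedicated transporters and many drugs are pumped back into the blood. Pericytes and smooth muscle cells wrap the endothelium and share a basement membrane with it. Fibroblasts lie along larger vessels and in the leptomeninges, the thin membranes over the brain surface, where cells also clear neurotransmitters and amino acids from the cerebrospinal fluid and secrete prostaglandin D synthase into it.

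Total counts ran from 11269915 to 34824450 per library, but ribosomal RNA held 64.3% to 88.1% of them, and 1819907 to 6399188 counts per library lay outside it. The 38 genes together had 462 to 2636 counts per library. Taar5 itself had 1 to 6 counts in each library of the TAAR5-KO label and 0 to 2 in those of the TAAR5-WT label, an order opposite to the labels. These counts are few, and where in the gene their reads lie was not tested. Libraries are therefore called KO-labelled (NK1 to NK6) or WT-labelled (NK7 to NK12), and every direction follows the label. All levels are CPM on library sizes multiplied by the TMM factors of edgeR (a scaling that equalises most genes), which ran from 0.379 to 2.45. The 9 genes of striatal spiny neurons read as a check of the tissue were all detected, with a summed level of 316 to 431 CPM in 11 libraries and 196 CPM in NK11, which also had the highest summed level of pituitary hormone genes (56.5 CPM, against 0.312 to 17.2 CPM elsewhere). Choroid plexus genes summed to 782 CPM in NK4 and to between 27.1 and 467 CPM in the other libraries. Calls of members that change without NK4 or NK11 are named beside the genes concerned.

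Per kilobase of exon, the scale on which genes can be compared with each other, the levels of the members spanned from Tagln to Ptgds. Ptgds, the prostaglandin D synthase of leptomeninges and oligodendrocytes, stood at 12.4 ± 5.44 CPM per kb (SD, n = 12). Ly6e, a membrane-anchored surface protein of endothelium and other cells, followed with 2.34 ± 0.669 CPM per kb, and Vtn, the matrix protein vitronectin that pericytes secrete, with 0.954 ± 0.31 CPM per kb. Itm2a (0.696 ± 0.138 CPM per kb) and the thyroid hormone transporter Slco1c1 (0.684 ± 0.25 CPM per kb) were next and lay within each other's spread. All other members were lower, from Dcn with 0.321 ± 0.133 CPM per kb down to Tagln with 0.0131 ± 0.0187 CPM per kb. The depth was low for this gene set: 18 of the 38 members had at least 1 library with 3 counts or fewer, where 3 counts corresponded to 0.0691 to 0.358 CPM.

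**Figure D1:**
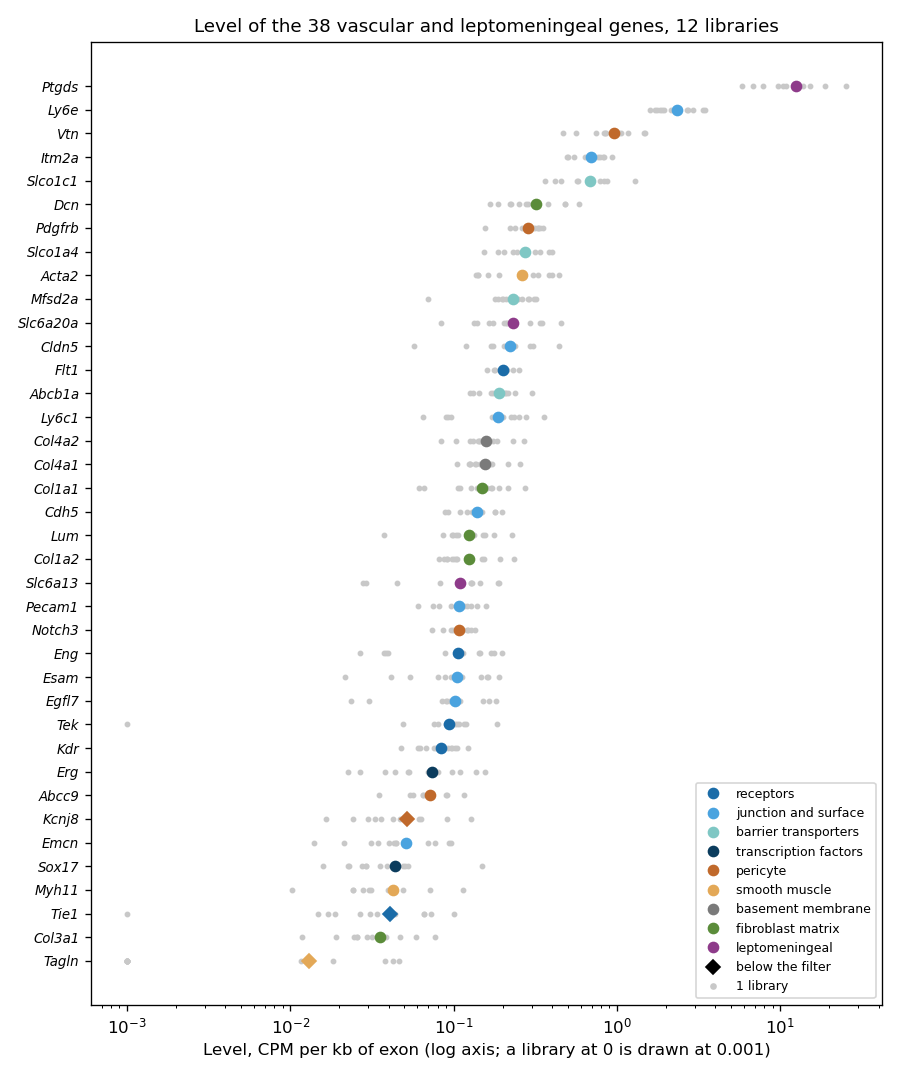
Level of each of the 38 genes in CPM per kb of exon (log axis), with 1 grey point per library and 1 coloured marker for the mean of 12 libraries, coloured by role. Ptgds (12.4 CPM per kb) and Ly6e (2.34 CPM per kb) stand above the rest, and the 3 diamonds are Kcnj8, Tie1 and Tagln, which did not pass the filter on low counts.

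No member passed the test between labels. With edgeR's likelihood ratio test and Benjamini–Hochberg adjustment over all 16174 features, 0 of 35 members had an adjusted p under 0.1, while 242 of all features (1.5%) did, 142 of them higher and 100 lower; scaled by library size only, 12 did, all lower. The quasi-likelihood test called 0 of 35 members and 0.315% of all features. DESeq2 called 0 members and 1.01% of all features. It gave no adjusted p for 4706 of the 16174 features, so it did not judge those. They included 17 of the 35 members, Slc6a13 and Mfsd2a among them. At an unadjusted p under 0.05 there were 4 of 35 members (11.4%), Slc6a13, Slc6a20a, Ptgds and Mfsd2a, and 11.4% of all features, so the share of members was that of the background. All 4 were lower in KO-labelled libraries, where 5.53% of all features were lower at that p. In 0 of 35 members did the labels separate without overlap, against 0.952% of all features. The median log2 fold change (KO-labelled over WT-labelled) of the members was −0.21 and that of all features −0.01. Of the members, 24 of 35 (68.6%) were below 0, against 51.6% of all features. The 11 others also went below 0 when scaled by library size only, which moves the median of all features to −0.49. The 95% interval of the log2 fold change included 0 for 31 members and lay within 1 of 0 on either side for 21, and for the other 14 it reached beyond 1 on at least 1 side. In bulk tissue, fewer cells of a type and less RNA per cell cannot be told apart.

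**Figure D2:**
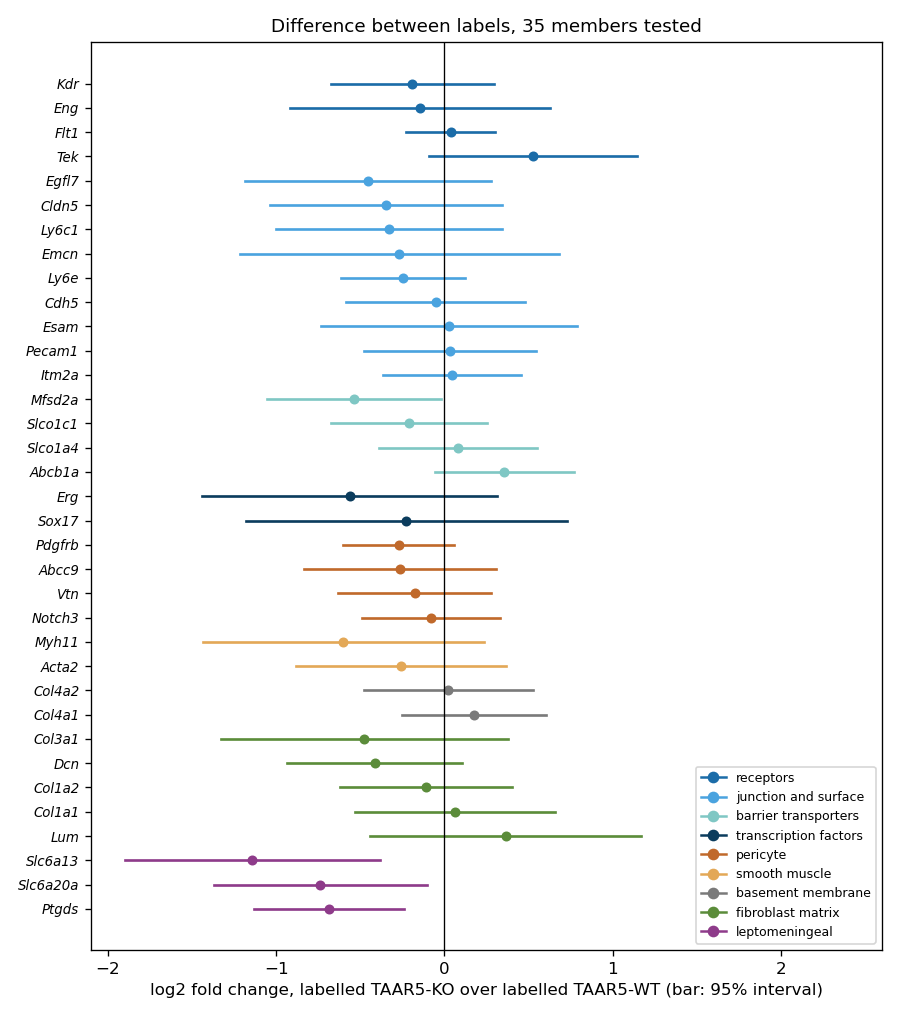
The log2 fold change of KO-labelled over WT-labelled libraries for the 35 members tested, as points with 95% intervals, grouped and coloured by role. Slc6a13, Slc6a20a, Ptgds and Mfsd2a have intervals that lie below 0, and 31 intervals include 0.

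Of the 5 growth factor receptors of endothelium, 4 were tested and none was called. Flt1, a receptor for vascular endothelial growth factor, was the most abundant per kilobase of them, with 2.61, 2.67 and 3.41 CPM as the lowest, median and highest value of KO-labelled libraries and 2.16, 2.63 and 3.10 CPM for WT-labelled libraries. The ranges overlapped over most of their length, and its log2 fold change of 0.04 ± 0.13 (SE; likelihood ratio test, adjusted p = 0.956) was the most precise of any member. Tek, the receptor for angiopoietins, had the smallest p of the group, with 0.421, 0.521 and 0.867 CPM in KO-labelled against 0, 0.368 and 0.507 CPM in WT-labelled libraries. In 3 KO-labelled libraries it lay above every WT-labelled library, and 4 WT-labelled libraries lay below every KO-labelled library, NK9 with 0 counts among them. The log2 fold change of Tek was 0.53 ± 0.31 (SE; likelihood ratio test, adjusted p = 0.524), and it was −0.01 when scaled by library size only. The other 2 tested, Kdr and Eng, had log2 fold changes of −0.19 and −0.15, and Eng had 0.27 with the ribosomal RNA share in the model.

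The 9 endothelial junction and surface proteins were all tested, with 6 below 0 and none called. Ly6e had both the smallest p and the highest level of them, with 6.01, 7.38 and 11.1 CPM in KO-labelled and 6.92, 8.77 and 13.1 CPM in WT-labelled libraries (lowest, median and highest). The ranges shared most of their length, with 3 KO-labelled libraries under and 2 WT-labelled libraries over the other label. Its log2 fold change was −0.25 ± 0.19 (SE; likelihood ratio test, adjusted p = 0.648). Pecam1, an adhesion molecule at contacts between endothelial cells, had 0.379, 0.703 and 0.985 CPM in KO-labelled and 0.507, 0.673 and 0.797 CPM in WT-labelled libraries, so that the KO-labelled range enclosed the other. Esam, an adhesion molecule of endothelial tight junctions, had 0.0620, 0.313 and 0.463 CPM against 0.119, 0.265 and 0.541 CPM. Itm2a, a membrane protein abundant in brain endothelium, had 1.12, 1.18 and 1.45 CPM against 0.865, 1.15 and 1.62 CPM, and here the WT-labelled range enclosed the KO-labelled one. The log2 fold changes were 0.03 ± 0.26 for Pecam1, 0.03 ± 0.39 for Esam and 0.04 ± 0.21 for Itm2a (SE; likelihood ratio test, adjusted p from 0.967 to 0.988). All 3 turned below 0 when scaled by library size only (−0.49, −0.35 and −0.48). The tight junction protein Cldn5, the cadherin Cdh5, the mucin-like Emcn, Ly6c1 and the secreted Egfl7 had log2 fold changes between −0.45 and −0.05, none with an adjusted p under 0.68.

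Among the 4 barrier transporters, Mfsd2a carries lysophospholipids with long-chain fatty acids into the brain and restrains transcytosis. It had 0.156, 0.433 and 0.558 CPM in KO-labelled and 0.471, 0.647 and 0.716 CPM in WT-labelled libraries. In 5 KO-labelled libraries it lay below every WT-labelled one, and NK4 alone reached into the WT-labelled range. The counts behind this were 2 to 17 per KO-labelled and 6 to 28 per WT-labelled library, the log2 fold change was −0.54 ± 0.26 (SE, 95% interval −1.05 to −0.02), and the likelihood ratio test gave an adjusted p of 0.398. Slco1c1 had 1.87, 2.68 and 6.69 CPM in KO-labelled and 2.95, 3.81 and 4.53 CPM in WT-labelled libraries. Its highest value was in NK4, above all WT-labelled libraries, while 3 KO-labelled libraries lay below all of them, and the log2 fold change was −0.21 ± 0.24 (SE; likelihood ratio test, adjusted p = 0.792). Without NK4 it was −0.49, with an adjusted p of 0.119 by the same test. The organic anion transporter Slco1a4 had 1.31, 1.76 and 2.48 CPM against 0.990, 1.66 and 2.56 CPM. Abcb1a, the drug efflux pump P-glycoprotein, had 0.725, 1.14 and 1.67 CPM against 0.695, 0.939 and 1.30 CPM. Both overlapped almost throughout, with log2 fold changes of 0.08 ± 0.24 and 0.36 ± 0.21 (SE; likelihood ratio test, adjusted p = 0.940 and 0.528) that became −0.30 and −0.14 when scaled by library size only.

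The 2 endothelial transcription factors were close to the limit of detection. Erg, an ETS family factor, had 0.0779, 0.169 and 0.337 CPM in KO-labelled libraries on 1 to 8 counts, and 0.0926, 0.327 and 0.541 CPM in WT-labelled libraries on 2 to 12 counts. The 3 highest libraries were WT-labelled, and the log2 fold change of −0.56 ± 0.45 (SE; likelihood ratio test, adjusted p = 0.661) did not pass the test. Sox17 had 1 to 6 counts in any library and a log2 fold change of −0.23 ± 0.49 (SE; likelihood ratio test, adjusted p = 0.911).

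All 6 tested genes of mural cells had log2 fold changes below 0, from −0.60 to −0.08, and none was called. Pdgfrb, the receptor through which endothelium recruits pericytes, had 0.857, 1.53 and 1.74 CPM in KO-labelled and 1.30, 1.80 and 1.95 CPM in WT-labelled libraries. Every KO-labelled library was below the median of the other label, and 4 WT-labelled libraries lay above all KO-labelled ones. The log2 fold change was −0.27 ± 0.17 (SE; likelihood ratio test, adjusted p = 0.555). For Vtn, values of 1.14, 1.72 and 2.95 CPM stood against 0.954, 2.04 and 3.01 CPM, which overlapped throughout, with a log2 fold change of −0.18 ± 0.23 (SE; likelihood ratio test, adjusted p = 0.833). The channel subunit Abcc9 and the receptor Notch3, further pericyte genes, had −0.26 and −0.08, and Notch3 had 0.07 with the GC trend removed and 0.03 with the ribosomal RNA share as a covariate. Of the smooth muscle genes, actin Acta2 had 0.303, 0.438 and 0.838 CPM in KO-labelled and 0.358, 0.650 and 0.974 CPM in WT-labelled libraries. The labels overlapped, with 3 KO-labelled libraries under and 2 WT-labelled libraries over the range of the other label, and the log2 fold change was −0.26 ± 0.32 (SE; likelihood ratio test, adjusted p = 0.818). The myosin heavy chain Myh11 had 0.0779, 0.257 and 0.372 CPM against 0.185, 0.282 and 0.865 CPM, on 1 to 13 counts. Its log2 fold change of −0.60 ± 0.43 (SE; likelihood ratio test, adjusted p = 0.615) was the lowest of the mural genes and had the widest error among them. Of the mural genes below the filter, Kcnj8 had 1 to 5 counts per library and Tagln 0 to 2, and the receptor Tie1 of endothelium had 0 to 8; a count of 0 allows up to 3.

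The collagens of the basement membrane, Col4a1 and Col4a2, were the only role group with no member below 0. Col4a1 had 0.935, 1.13 and 1.61 CPM in KO-labelled and 0.783, 1.01 and 1.91 CPM in WT-labelled libraries. Col4a2, which pairs with it in the same trimer, had 0.558, 0.991 and 1.52 CPM against 0.829, 0.953 and 1.79 CPM. In both, NK10 was the highest and NK12 the lowest WT-labelled library, and the labels overlapped almost throughout. Their log2 fold changes were 0.17 ± 0.22 and 0.02 ± 0.26 (SE; likelihood ratio test, adjusted p = 0.824 and 0.985), and −0.32 and −0.33 when scaled by library size only. The 2 genes lie head to head on chromosome 8 of GRCm39, Col4a1 on the minus strand from 11248423 to 11362826 and Col4a2 on the plus strand from 11362805 to 11499287. Their annotated ends overlap, and the strand setting of the counting is not given in the sources used here, so reads in the overlap cannot be assigned with certainty.

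The 5 fibroblast matrix genes went both ways. Decorin, Dcn, a small proteoglycan that binds collagen fibrils, had 1.09, 1.46 and 2.80 CPM in KO-labelled and 0.974, 2.00 and 3.43 CPM in WT-labelled libraries. Of the KO-labelled libraries, 5 were below the median of the other label but none was below its lowest library, and the log2 fold change was −0.42 ± 0.26 (SE; likelihood ratio test, adjusted p = 0.572). Lumican, Lum, a related proteoglycan that lies next to Dcn on chromosome 10, had 0.242, 0.287 and 0.558 CPM against 0.0921, 0.282 and 0.433 CPM, on 2 to 10 counts. Of the WT-labelled libraries, 3 were below all KO-labelled ones, and the log2 fold change was 0.36 ± 0.41 (SE; likelihood ratio test, adjusted p = 0.792). Col1a1, a chain of fibrillar collagen, had 0.403, 0.980 and 1.81 CPM against 0.433, 0.982 and 1.41 CPM, with medians that differed less than the spread and a log2 fold change of 0.06 ± 0.30 (SE; likelihood ratio test, adjusted p = 0.967). Lum and Col1a1 had log2 fold changes of −0.12 and −0.37 when scaled by library size only. Col1a2 and Col3a1 had −0.11 and −0.48, and without NK4, its highest library, Col1a2 had −0.38 (likelihood ratio test, adjusted p = 0.452).

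**Figure D3:**
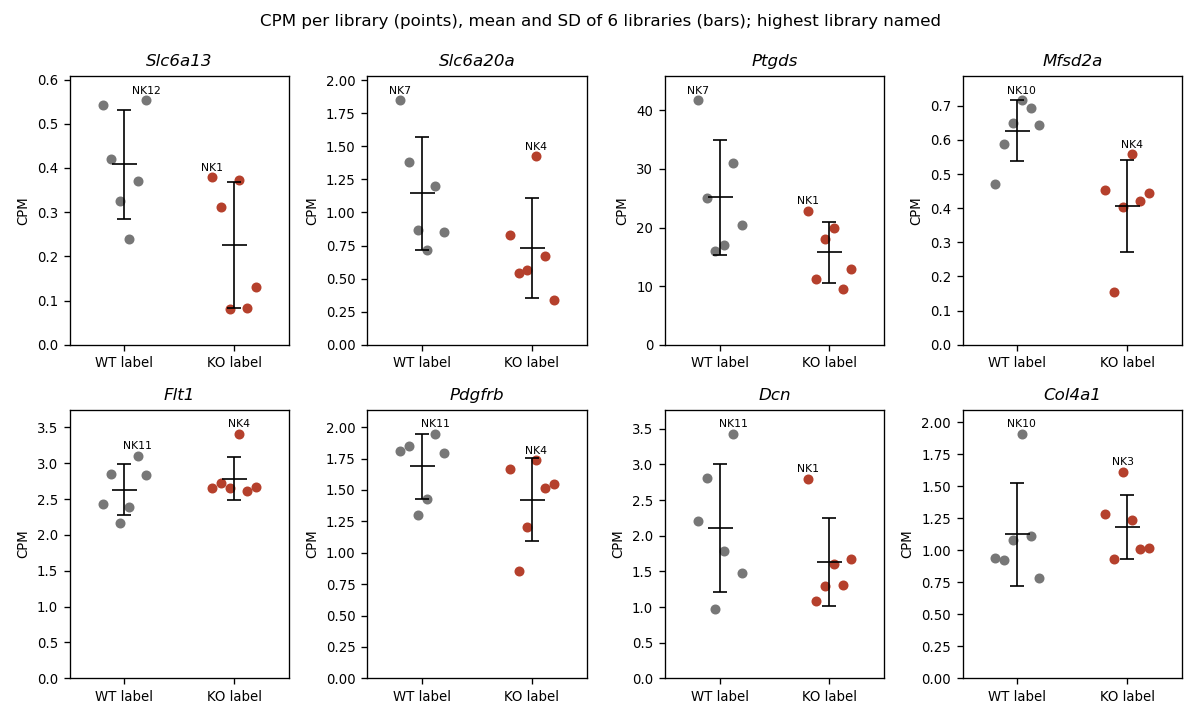
CPM per library of 8 members, with 6 points for each label and the mean and SD as bars; the highest library of each label is named. Slc6a13, Slc6a20a, Ptgds and Mfsd2a have lower KO-labelled means with overlapping points, and Flt1, Pdgfrb, Dcn and Col4a1 are the most abundant or lowest-p member of other role groups.

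The 3 leptomeningeal genes had the 3 lowest log2 fold changes of the 35 members, and the median of the other 32 members was −0.18. They were chosen as a group with earlier results of these data known, so this order is a description. Slc6a13, a transporter of GABA and taurine, lies on chromosome 6 of GRCm39 from 121277186 to 121314692 on the plus strand. The KO-labelled libraries NK1 to NK6 had, in that order, 0.379, 0.312, 0.0806, 0.372, 0.0841 and 0.131 CPM, on 1 to 6 counts each. The WT-labelled libraries NK7 to NK12 had 0.543, 0.420, 0.325, 0.239, 0.371 and 0.553 CPM in order, on 2 to 24 counts each. The KO-labelled libraries NK3, NK5 and NK6 were below every WT-labelled library, and the other 3 lay among them. The log2 fold change was −1.14 ± 0.39 (SE, 95% interval −1.90 to −0.38), with an adjusted p of 0.113 by the likelihood ratio test and 0.267 by the quasi-likelihood test.

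Because Slc6a13 had the smallest p of the members, its upstream sequence is shown, from the promoter table of RefSeq on GRCm38.p6, chr6:121300038-121300226, plus strand. It covers the first 189 of the 250 bases before the start furthest upstream and ends where the first annotated exon begins. Capitals mark the letters GGGCGG, known as a binding motif of SP factors, from 187 to 182 bases before that start.
Slc6a13: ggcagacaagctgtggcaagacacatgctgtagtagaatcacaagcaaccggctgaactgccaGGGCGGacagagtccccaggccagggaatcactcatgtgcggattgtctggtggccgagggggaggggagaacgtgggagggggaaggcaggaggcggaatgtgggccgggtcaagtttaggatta
The windows of Ptgds, Slc6a20a and Mfsd2a begin inside exons of GENCODE M39, a later release than that of the counts. Their letters are not shown for that reason. By the exons used for the counts, the first 157, 197 and 20 bases of these windows, in that order, lay outside exons. The table held 34 windows of 300 bases, 250 before and 50 after a start, for 27 of the 38 members. GGGCGG on either strand was in 38.2% of these windows and in 35.7% of all 32851 windows of the table. The ETS letters CAGGAAG, the motif of the family of Erg, were in 14.7% of the members' windows and 13.3% of all, with all 5 matches in endothelial genes (Egfl7, Emcn, Erg and Itm2a) out of 20 endothelial windows. The SOX letters ACAATGG or AACAAT, which can overlap each other, were in 14.7% against 13%, and TATAAA in 17.6% against 13.6%. The CArG box of smooth muscle genes was in none of the 34 windows and in 1.63% of all. A match is a description of these letters and says nothing of binding.

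Slc6a20a, a transporter of proline and other imino acids, lies on chromosome 9 from 123463835 to 123507950 on the minus strand. The KO-labelled libraries NK1 to NK6 had, in that order, 0.833, 0.545, 0.564, 1.42, 0.673 and 0.340 CPM. The WT-labelled libraries NK7 to NK12 had 1.85, 1.38, 0.865, 0.716, 1.20 and 0.852 CPM in order. NK4 was higher than 5 of the 6 WT-labelled libraries, and 4 KO-labelled libraries were below all of them. The log2 fold change was −0.74 ± 0.32 (SE, 95% interval −1.37 to −0.11; likelihood ratio test, adjusted p = 0.319). Ptgds lies on chromosome 2 from 25356721 to 25360058 on the minus strand, and its counts of 143 to 1151 per library were the deepest of the group. The KO-labelled libraries NK1 to NK6 had, in that order, 22.9, 11.3, 18.0, 19.9, 9.59 and 12.9 CPM. The WT-labelled libraries NK7 to NK12 had 41.7, 25.0, 16.0, 17.1, 30.9 and 20.4 CPM in order. NK2, NK5 and NK6 were below every WT-labelled library, NK7, NK8 and NK11 were above every KO-labelled library, and the other 6 overlapped. The log2 fold change was −0.69 ± 0.23 (SE, 95% interval −1.13 to −0.24), with an adjusted p of 0.127 by the likelihood ratio test and 0.215 by the quasi-likelihood test.

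Single libraries decided whether these genes passed the threshold. Without NK4, all 3 passed (likelihood ratio test, adjusted p = 0.0390 for Slc6a13, 0.0417 for Slc6a20a and 0.0696 for Ptgds), and without NK1, NK9 or NK10, Slc6a13 and Ptgds did. Of all features, 2.53% were called without NK4, 0.705% without NK1, 2.11% without NK9 and 1.29% without NK10, against 1.5% with all libraries. Without any of the other 8 libraries, none passed, and the adjusted p rose to at most 0.322 for Slc6a13, 0.612 for Slc6a20a and 0.376 for Ptgds. The log2 fold changes stayed below 0 without any library, from −1.37 to −0.94 for Slc6a13, from −1.07 to −0.54 for Slc6a20a and from −0.82 to −0.48 for Ptgds. With each library's share of ribosomal RNA as a covariate, the adjusted p was 0.318, 0.559 and 0.423 for the 3 genes.

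**Figure D4:**
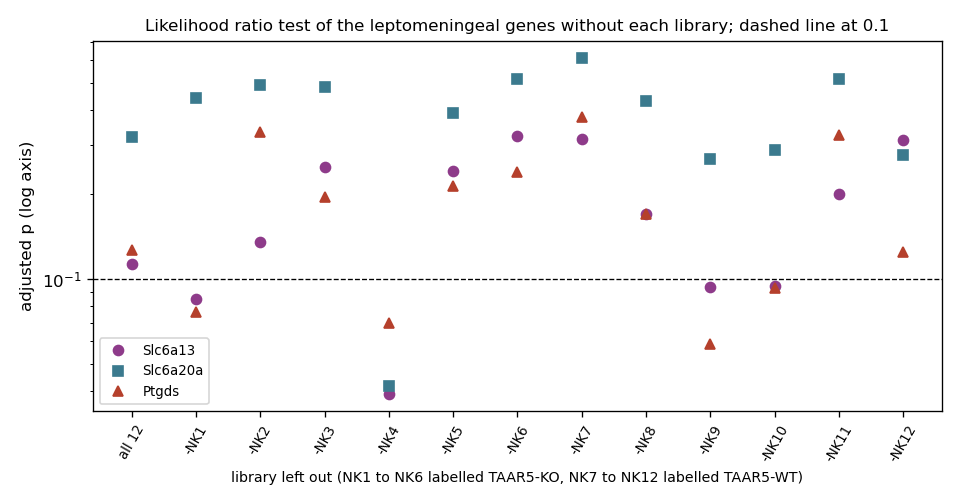
Adjusted p (log axis) of Slc6a13, Slc6a20a and Ptgds by the likelihood ratio test with all 12 libraries and without each of them in turn; the dashed line is the threshold of 0.1. Points fall under the line without NK4 for all 3 genes and without NK1, NK9 or NK10 for Slc6a13 and Ptgds.

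Marker lists of other cells were read in the same libraries. The summed level of the 3 leptomeningeal genes was 10.3 to 24.1 CPM in KO-labelled and 17.2 to 44.1 CPM in WT-labelled libraries. Most of this sum was Ptgds, which alone had 9.59 to 22.9 CPM and 16.0 to 41.7 CPM. Oligodendrocytes also make Ptgds: 7 of 8 oligodendrocyte genes were below 0, and their sum was 577 to 714 CPM in KO-labelled and 633 to 786 CPM in WT-labelled libraries, with none of the 8 called. Choroid plexus genes (9 of 10 below 0, none called) summed to 27.1 to 782 CPM and 33.2 to 467 CPM. The medians of these sums were 38.7 CPM in KO-labelled and 302.8 CPM in WT-labelled libraries. Astrocyte genes (9 of 9 below 0, 1 called) summed to 1108 to 1290 CPM and 1199 to 1426 CPM. Microglial genes (9 of 9 below 0, 3 called) summed to 29.2 to 42.1 CPM and 42.3 to 52.5 CPM. Of all features, 1.5% were called and 51.6% were below 0. The microglial sums just missed overlapping, between NK4 and NK10, while the labels overlapped for each of the 9 genes. The quasi-likelihood test called 0 genes of either list. Perivascular macrophage genes (2 of 3 tested below 0, none called) summed to 1.17 to 3.18 CPM and 1.82 to 2.78 CPM. Red blood cell genes went the other way, with 4 of 5 above 0, 1 called higher, and sums of 6.41 to 16.9 CPM and 5.08 to 13.6 CPM. Ependymal genes (3 of 7 below 0, none called) summed to 2.20 to 14.3 CPM and 4.95 to 8.87 CPM, and cortical pyramidal genes (3 of 6 below 0, none called) to 25.3 to 93.5 CPM and 31.2 to 104 CPM. Spiny neuron genes were above 0 in 9 of 9, with none called, and pituitary genes below 0 in 3 of 3 tested, with 1 called. The spiny neuron sums were 334 to 431 CPM (median 405.6) in KO-labelled and 196 to 365 CPM (median 349.2) in WT-labelled libraries. The pituitary sums were 0.312 to 5.595 CPM (median 0.7125) and 0.4195 to 56.5 CPM (median 7.873). No gene of these lists was at 0 in all 12 libraries, and the part of these cells in the results was not tested.

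Members varied together only weakly. Over the 12 libraries, the median Pearson's r of the 595 pairs of members was 0.104 on log2 CPM, against 0.00124 for all pairs of features tested. It was 0.0419 within the endothelial genes, 0.256 within the mural genes, 0.202 within the fibroblast matrix genes and 0.71 within the leptomeningeal genes. Slc6a20a and Ptgds had r = 0.79 (Spearman's rho 0.76) over all libraries, 0.53 within KO-labelled and 0.92 within WT-labelled libraries. Slc6a13 had r = 0.71 with Slc6a20a and 0.68 with Ptgds (rho 0.74 for both), and 0.50 to 0.60 within either label. These values are descriptions of points that share a library, its depth and its scaling. Scaled by library size only, the median r of all member pairs was 0.813. The value for all pairs of features was not taken under that scaling, so 0.813 has no background beside it.

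**Figure D5:**
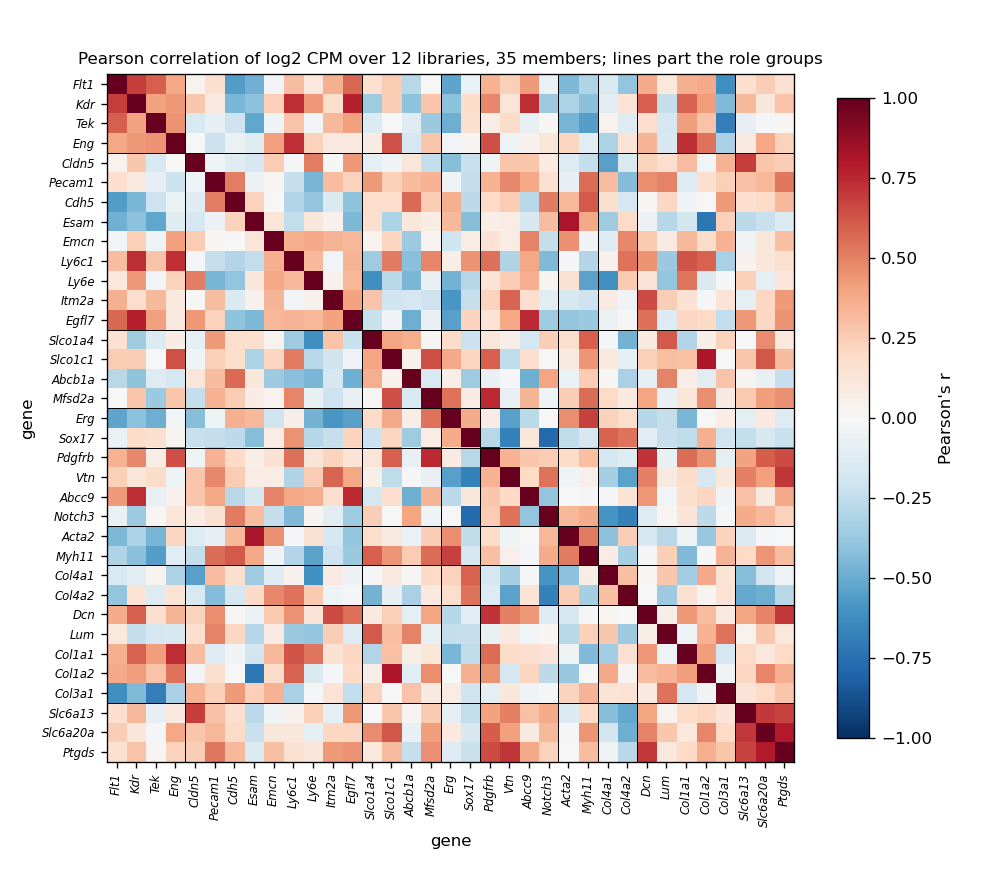
Pearson's r of log2 CPM over 12 libraries for each pair of the 35 members, from −1 (blue) to 1 (red), with lines between role groups. The block of Slc6a13, Slc6a20a and Ptgds (r from 0.68 to 0.79) is red throughout, and the endothelial block is mixed (median 0.0419).

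Beside the members, 169 other genes were listed as related to the same cells and pathways, and 146 of these were tested. Whether their RNA came from vascular or leptomeningeal cells was not tested. The likelihood ratio test called 3 (2.05%), a share near the 1.5% of all features. At an unadjusted p under 0.05 by this test there were 30 (20.55%), against 11.4% of all features. Lower in KO-labelled libraries at that p were 17.8%, against 5.53% of all features. All 3 called genes belonged to the other fibroblast and leptomeningeal genes, of which 34 of 41 were below 0. Of these 41, 7.32% were called and 31.7% had an unadjusted p under 0.05. The lists were chosen with earlier results of these data known, so these shares are descriptions. Slc13a3, a transporter of dicarboxylates, was lower in KO-labelled libraries, with 1.51 ± 0.307 CPM against 2.36 ± 0.321 CPM (SD, n = 6 each). Its log2 fold change was −0.68 ± 0.17 (SE; likelihood ratio test, adjusted p = 0.0129; quasi-likelihood test, adjusted p = 0.0896), every KO-labelled library but 1 lay below all WT-labelled ones, and it passed without any single library, but not with the GC trend removed (adjusted p = 0.127) or when scaled by library size only (0.728). Igfbp5, a binding protein of insulin-like growth factors, was lower too, with 30.4 ± 2.40 against 38.5 ± 4.65 CPM (SD, n = 6 each; log2 fold change −0.35, likelihood ratio test, adjusted p = 0.0544). Without NK1, NK2, NK7 or NK11 it did not pass, nor by the quasi-likelihood test (adjusted p = 0.147), with the GC or length trend removed (0.244 and 0.111), with the ribosomal RNA share as a covariate (0.175), with no filter (0.270) or when scaled by library size only (0.728). Col6a1, a chain of beaded-filament collagen, was higher, with 2.77 ± 0.663 against 1.65 ± 0.355 CPM (SD, n = 6 each; log2 fold change 0.75, likelihood ratio test, adjusted p = 0.0204). Without NK7 its adjusted p was 0.108, by the quasi-likelihood test 0.105, with the share of ribosomal RNA in the model 0.127 and when scaled by library size only 0.770.

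In the other 6 lists no gene was called. Of the vascular ligands, 14 of 19 tested were below 0, with the smallest p for Bmp6 (1.17 ± 0.363 against 1.94 ± 0.511 CPM, log2 fold change −0.66) and Vegfb (−0.36). Of the other receptors and co-receptors, 17 of 22 were below 0, led by Ramp2, the partner of the adrenomedullin receptor (0.362 ± 0.0996 against 0.668 ± 0.150 CPM, log2 fold change −0.82), and Nrp2 (−0.47). Among other barrier junctions and transporters, 18 of 27 were below 0, led by the adhesion molecule Jam2 (−0.41) and the glucose transporter Slc2a1 (−0.35). Ets1, an ETS family factor, was 1 gene of the 146 (0.685%, against 0.952% of all features) whose labels did not overlap, with 0.735 ± 0.160 against 1.14 ± 0.0955 CPM and a log2 fold change of −0.51, while Klf2, induced by blood flow, had 0.87. Among other mural genes 11 of 13 were below 0, led by the aminopeptidase Anpep (−0.81) and the Notch target Heyl (−0.89), and among other basement membrane genes 10 of 16, led by Sparc (−0.62) and the laminin chain Lamb2 (−0.43). The adjusted p of these 12 genes by the likelihood ratio test ran from 0.111 for Ramp2 to 0.417 for Vegfb. Without 1 library, 8 genes of these lists passed in at least 1 fit, 5 of them among those named (likelihood ratio test, lowest adjusted p): Heyl without NK5 (0.00968), Sparc without NK4 or NK5 (0.00973), Bmp6 without NK4 or NK12 (0.0403), Jam2 without NK4 or NK5 (0.0552) and Ramp2 without NK6, NK8 or NK9 (0.0702). Over the fits without 1 library, 0.513% (without NK11) to 2.53% (without NK4) of all features were called. The median log2 fold change of all 146 related genes was −0.21, as for the members.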

How the data were processed

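Striatal RNA of 12 mice was measured by RNA sequencing. The authors trimmed single-end reads of 100 bases (cutadapt 4.1), aligned them to GRCm39 (STAR 2.7.11b) and obtained gene counts on GENCODE M35 with featureCounts 2.0.6; they deposited whole-number counts per gene, not normalized or pooled. Columns carry a genotype and a name (NK1 to NK12) but no animal number, and were used as replicates of their genotype. The table holds 12 more per-library columns, which were left out.

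Features with at least 0.25 CPM of the total count in at least 3 libraries were fitted together in edgeR 4.0.16 (R 4.3.3) with TMM factors, estimateDisp, glmFit and glmLRT on genotype alone, and a feature was called where its p adjusted by Benjamini–Hochberg was under 0.1. The quasi-likelihood test of edgeR and DESeq2 1.42.0 were run beside it, and an adjusted p that DESeq2 gave as missing stayed missing. Log2 CPM for correlations had a prior count of 2. The test was also run on counts simulated independently for each gene from the fitted spread. Such counts hold no variation shared between genes, so that run cannot show how the test behaves under it. No libraries agreed within sampling noise (chi-square per degree of freedom at least 8.11).

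The members and gene lists were chosen with earlier results of these data known. Members given with levels in full were, in each role group, the one with the smallest p and the one with the highest level per kilobase, and those whose call changed without 1 library or whose direction changed under another scaling; the others have ranges. Of each list of related genes, those called and the 2 with the smallest p were named, and Ets1 was singled out for its lack of overlap after its values were seen. Precision follows from the counts outside ribosomal RNA. Each p-value sets the difference between labels against the spread fitted between these libraries, which includes any difference between the sexes.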

Additional observations from a re-analysis of the deposited data

Results flagged for a closer look

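Within each label, the library furthest from the others was compared with the spread of the label on the log2 CPM scale (Dixon's ratio of gap to range, critical value 0.625 for 6 libraries) in 70 groups of 6 values, and 5 were beyond it. Chance marks about 1 in 20 groups. NK4, the library with the highest choroid plexus level, was highest of the KO-labelled libraries for Flt1 with 3.407 CPM, where the next had 2.73 CPM, and for Col1a2 with 2.912 CPM, where the next had 1.30 CPM. Tek had 0 CPM in NK9, against a median of 0.368 CPM of the WT-labelled libraries. Egfl7 had 0.08414 CPM in NK5, on 2 counts, against a median of 0.331 CPM. Mfsd2a had 0.1558 CPM in NK2, also on 2 counts, against a median of 0.433 CPM of the KO-labelled libraries.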

How the results depend on the processing

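No paired analysis was possible because the columns carry no animal number from the labels. Over all features, the 242 calls became 51 with the quasi-likelihood test, 12 when scaled by library size only (which moves the median over all features to −0.49 on the log2 scale), 93 with no filter, 94 with the GC trend removed, 130 with the ribosomal RNA share as a covariate, 103 at an adjusted p under 0.05 and 581 with robust dispersions, an alternative added after the data were seen. Leaving out 1 library gave 83 (without NK11) to 410 (without NK4). Of the members, 0 became 2 with robust dispersions (likelihood ratio test, adjusted p = 0.0299 for Slc6a13 and 0.0985 for Ptgds) and 0 to 3 without 1 library. Under the other alternatives none was called, but DESeq2 gave no adjusted p for 17 of the 35. Over the alternatives that kept all libraries, the adjusted p ran from 0.0299 to 0.728 for Slc6a13 and from 0.0985 to 0.728 for Ptgds. Of the related genes, 3 became 1 with the quasi-likelihood test, 0 with library size only (all 146 at an adjusted p over 0.1), 1 with the GC trend removed, 11 with robust dispersions and 1 to 11 without 1 library. The median r of member pairs became 0.813 with library size only, where no value over all features was taken, and ran from 0.076 to 0.119 without 1 library.

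Directions turned under at least 1 alternative for 15 of the 35 members, all without a call. With library size only, the log2 fold change was −0.42 for Flt1, −0.014 for Tek, −0.49 for Pecam1, −0.35 for Esam, −0.48 for Itm2a, −0.30 for Slco1a4, −0.14 for Abcb1a, −0.32 for Col4a1, −0.33 for Col4a2, −0.12 for Lum and −0.37 for Col1a1. With the ribosomal RNA share as a covariate it was −0.10 for Pecam1, −0.0011 for Itm2a and −0.025 for Slco1a4, with the GC trend removed −0.043 for Itm2a and −0.031 for Slco1a4, and with robust dispersions −0.055 for Col1a1 and with DESeq2 −0.011 for Esam. Eng (0.27) and Notch3 (0.030) turned above 0 with ribosomal RNA in the model, and Cdh5 (0.024) and Notch3 (0.065) with the GC trend removed. Without 1 library the range was −0.021 to 0.083 for Flt1, −0.087 to 0.18 for Pecam1, −0.16 to 0.24 for Esam, −0.10 to 0.15 for Itm2a, −0.082 to 0.27 for Slco1a4, −0.17 to 0.17 for Col4a2, −0.25 to 0.21 for Col1a1, −0.36 to 0.085 for Eng, −0.15 to 0.13 for Cdh5 and −0.39 to 0.12 for Sox17. The causes were not tested. Depth limited the genes with few counts: Erg, Sox17, Lum and Slc6a13 dropped out at a filter of 0.5 CPM.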
